A study of Trichoderma cf. simile with 24 samples.

Results

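Mycelium of Trichoderma cf. simile WF8, a filamentous fungus, taken 1 day after cultures had received 4-phenoxybenzoic acid, was set against control mycelium taken on day 3. Each side held 3 flask cultures, so 6 of the 24 libraries of the series were compared, each assigned to its side by its group label. All 13298 listed loci entered, and 10842 passed a filter on low counts and were tested. The series measured poly-A RNA by sequencing in 8 groups of 3 flasks: controls, 4-phenoxybenzoic acid (10 mg/L), phenetole (200 mg/L) and 9,10-dibutoxyanthracene (5 mg/L), each at days 1 and 3. Every group was the same strain, isolated from decaying wood near a coal mine and grown for 60 h in the dark in Sabouraud maltose broth (100 mL at 29 °C and 180 rpm) before anything was added. Supplements named for the treatments include veratryl alcohol, manganese and copper. 4-Phenoxybenzoic acid came from a dichloromethane stock of 0.2 g/L, which at the stated dose amounts to 5% of the culture volume. 9,10-Dibutoxyanthracene came from a stock of the same solvent and strength, at 2.5% of the culture volume. The labels do not say whether controls received the supplements or the solvent, so the compound, 2 days of further culture and any difference in solvent or supplements cannot be told apart.

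4-Phenoxybenzoic acid is a diaryl ether: an oxygen atom joins a pair of benzene rings, of which one carries a carboxylic acid. It serves as a model of ether bonds in lignite, the brown coal formed from plant remains. Fungi commonly attack aromatic compounds with secreted laccases and peroxidases and with cytochrome P450 enzymes inside the cell, and feed ring cleavage products into central metabolism. In a flask with a fixed supply of sugar and peptone, mycelium also changes its gene expression with age as nutrients run down. The files give 0 of the IDs a gene name, so no enzyme family, and no marker of mycelium, could be scored. Loci are therefore given by ID and length, and no role can be stated for any of them.

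The question was what remained different once the treated day 1 mycelium was matched with the control state of day 3. Levels are in CPM, read counts relative to the scaled library total, and a level in mycelium cannot tell fewer cells of a kind from less RNA per cell. The compared libraries held 18271484 to 19570576 counts, and 11270 to 11560 loci had a count. Control flask 3 of day 3 stood apart from its group, with a scaling factor of 0.792 against 1.18 and 1.08, and 38.1% of its counts in the 100 most abundant loci against 28% and 30.1%. The treated flasks had factors of 1.10 to 1.22 and 28.2% to 31.4%. None of 5 such library measures separated the sides in exact two-sided permutation tests, where the lowest p was 0.4 and 3 against 3 flasks cannot go below 0.1.

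The distance between treated day 1 and day 3 control flasks overlapped the distance among the day 3 controls, which rested on control flask 3. Over the 10842 loci, the median absolute log2 difference between a treated flask and a day 3 control flask ranged from 0.38 to 0.68 over the 9 pairs, with a middle value of 0.45. Between pairs of day 3 control flasks it ranged from 0.28 to 0.54, with a middle value of 0.44, and between pairs of treated flasks from 0.26 to 0.39. Both control pairs that held flask 3 stood at 0.44 and 0.54. The pair without it, at 0.28, was closer than every treated and control pair, and without that flask the 6 remaining treated and control pairs ranged from 0.38 to 0.50. The treated flasks were farther from the day 1 controls of their own age, with a middle value of 0.66. That range, 0.55 to 0.86, overlapped the range to the day 3 controls. Day 1 controls also spread more within their group, with a median SD of log2 CPM of 0.49 against 0.36 in day 3 controls. The day 3 and day 1 controls were 0.54 to 0.79 apart.

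Against that background a limited set of loci differed. The edgeR quasi-likelihood test called 578 loci at an adjusted p under 0.05, which is 5.33% of those tested. Of these, 150 (1.38%) were higher and 428 (3.95%) lower in the treated day 1 mycelium than in the day 3 control, and 521 (4.81%) differed at least 2-fold. The median log2 difference was 1.49 among the higher and −2.05 among the lower loci, against −0.0003 over all loci tested. All 3 treated flasks lay above all 3 control flasks in each of the 150 higher loci, and below them in 411 of the 428 lower ones. Among all loci tested, 1623 lay wholly above and 1717 wholly below. The count rests on single flasks: it was 53 without treated flask 1, 105 without treated flask 2, 357 without treated flask 3, 214 without control flask 2, 285 without control flask 3 and 265 without the flasks numbered 3. It was 1119 with DESeq2 and 316 with the control and 4-phenoxybenzoic acid groups alone in the model, while 39 loci, 12 higher and 27 lower, were called under all 15 alternatives that refitted the model. In the same fit 2601 loci (24%) were called between treated and control mycelium of day 1, 2251 (20.8%) between the controls of the different days, 329 (3.03%) between the treated groups of the different days and 8 (0.0738%) between treated and control mycelium of day 3. These comparisons share libraries with each other.

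The loci described first were the 2 of largest log2 difference in each direction among called loci whose groups did not overlap and whose higher group held at least 10 counts in every flask. Among loci higher in the treated day 1 than in the day 3 control flasks, these were Trisim1_006099 (462 bp) and Trisim1_009677 (855 bp). Trisim1_006099 stood at 3.67, 6.06 and 23.2 CPM in treated flasks 1, 2 and 3, and none of the day 3 control flasks held a count of it. It was at least 210-fold higher against a floor of 3 counts over the control group (adjusted p = 0.00519, edgeR). The treated flasks spread over a wide range, yet every one of them was above every control flask. Day 1 controls held Trisim1_006099 at 0, 0 and 0.154 CPM. Day 1 phenetole flasks held it at 26.3, 32.1 and 34.2 CPM, above every treated flask. Trisim1_009677 stood at 0.442, 2.15 and 10.1 CPM against 0 counts in all day 3 control flasks, at least 80.8-fold higher (adjusted p = 0.01, edgeR). Most of its signal came from treated flask 3. Day 1 controls held Trisim1_009677 at 0.0502, 0.615 and 0.231 CPM, overlapping treated flask 1. Against the day 1 control alone its adjusted p was 0.0262 (edgeR). The joint test against both controls, described below, gave 0.205 and did not call it. In 4-phenoxybenzoic acid cultures of day 3, Trisim1_009677 was back to 0.122 CPM in flask 1 and 0 in the others, and Trisim1_006099 was at 0.0816, 11.8 and 7.27 CPM in flasks 1, 2 and 3. Both calls were lost without the flasks numbered 3, and that of Trisim1_009677 also when the model held the compared groups alone.

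Among loci lower in the treated day 1 flasks, the same rule gave a 1080 bp locus outside the numbered gene models and Trisim1_006003 (3048 bp). Treated flasks held the 1080 bp locus at 0.133, 0.0954 and 0.186 CPM, while the day 3 controls held it at 0.606, 98.8 and 32.0 CPM, 311-fold lower on pooled counts (adjusted p = 0.0141, edgeR). Control flask 1 was thus nearer to the treated flasks than to the other controls. The fold rests on 9 counts over the treated flasks. Trisim1_006003 stood at 0.575, 0.906 and 2.09 CPM in treated flasks against 19.3, 65.7 and 313 CPM in day 3 controls, 92.1-fold lower (adjusted p = 0.0113, edgeR). Here the groups were well apart, but the controls differed among themselves by more than 10 times. The call of the 1080 bp locus was lost without any one of the treated flasks, without control flask 2 and without the flasks numbered 3. That of Trisim1_006003 was lost without treated flask 1 or flask 2, without the flasks numbered 3 and with control and 4-phenoxybenzoic acid groups alone in the model. In the day 1 controls, the 1080 bp locus was at 0, 1.56 and 10.6 CPM and Trisim1_006003 at 4.77, 29.0 and 17.8 CPM, levels between those of the compared groups on average.

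Some loci lay beyond the controls of both days. Loci between the controls, which can also differ from each, could not be called here. To find them, a joint test asked whether treated day 1 mycelium differed from the day 3 and the day 1 control in 1 direction, using the larger of the p-values. It called 60 loci (0.553% of those tested), 15 higher (0.138%) and 45 lower (0.415%) than both controls, and 58 of them differed at least 2-fold from both (0.535%). The smaller of the log2 differences had a median of 3.04 among the 15 and −1.77 among the 45. The count fell to 11, 7 and 30 without treated flasks 1, 2 and 3, to 23 and 17 without day 3 control flasks 2 and 3, and to 31 without day 1 control flask 3. It was 229 with DESeq2, 13 with the compared groups alone in the model, 16 with the control and 4-phenoxybenzoic acid groups, and 5 without the flasks numbered 3. Only Trisim1_006101, Trisim1_002817 and Trisim1_009224 were called under all 18 alternatives that refitted the model, and these 3 are described here because of that, after their values were seen.

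Above both controls the rule named Trisim1_006100 (384 bp) and again Trisim1_006099. Treated flasks held Trisim1_006100 at 58.2, 106 and 184 CPM, day 3 controls at 0.13, 0.783 and 0.138 CPM, and day 1 controls at 0.1, 0.335 and 0 CPM. It was 318-fold higher than the day 3 and 732-fold higher than the day 1 control (joint adjusted p = 0.000535, edgeR), and this call was lost only without the flasks numbered 3. Trisim1_006101 (4518 bp), the next number, stood at 163, 184 and 337 CPM against 0.953, 3.72 and 2.42 CPM in day 3 controls, 99.0-fold higher (joint adjusted p = 0.00021, edgeR). Every treated day 1 flask was far above every control flask of either day at both loci. In treated cultures of day 3, Trisim1_006100 was at 2.37, 92.4 and 56.9 CPM and Trisim1_006101 at 21.8 to 185 CPM. Both loci were called there against the day 3 control (adjusted p = 0.005 and 0.00174, edgeR). They were also high with phenetole, an aryl ether, where day 1 flasks held 344 to 424 CPM of Trisim1_006100 and 115 to 347 CPM of Trisim1_006101. For Trisim1_006099 the joint test gave an adjusted p of 0.0219 (edgeR) and was lost in 10 of 18 alternatives.

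Trisim1_002817 (3703 bp) went past the day 3 control level. It was nearly absent from day 1 controls, where 2 counts were found over 3 flasks. Day 3 controls held 6.71, 6.36 and 8.36 CPM. Treated day 1 flasks held 516, 435 and 396 CPM, 64.3-fold above the day 3 control, a log2 difference of 5.98 ± 0.81 (SE; joint adjusted p = 0.000795, edgeR). In treated cultures of day 3 it was at 42.5, 68.1 and 84.8 CPM, between the treated day 1 and the control day 3 flasks. Phenetole flasks ranged from 21.8 to 197 CPM on day 1 and from 43.4 to 424 CPM on day 3. Its numbered neighbour Trisim1_002816 (1269 bp) stood at 10.9, 13.5 and 27.7 CPM with the compound on day 1, against 0.823, 0.147 and 0.345 CPM in the day 3 control (37.2-fold; joint adjusted p = 0.00226, edgeR). Neither locus had overlapping groups.

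Below both controls, a 1071 bp locus outside the gene models and Trisim1_011447 (1939 bp) were named by the rule. Treated flasks held the 1071 bp locus at 0, 0.572 and 0.93 CPM, against 5.28, 17.4 and 26.5 CPM in day 3 and 2.86, 22.7 and 65.1 CPM in day 1 controls (joint adjusted p = 0.0321, edgeR). Its level was 30.2-fold below the day 3 and 52.5-fold below the day 1 control. Trisim1_011447 was at 0.0442, 0.191 and 0.0465 CPM, against 1.65, 5.97 and 1.04 CPM in day 3 and 0.854, 1.73 and 3.15 CPM in day 1 controls (joint adjusted p = 0.0226, edgeR), 32.7-fold and 19.0-fold lower. These folds rest on 1, 4 and 1 counts in treated flasks 1, 2 and 3. The joint calls of the 1071 bp locus and Trisim1_011447 were each lost in 9 of 18 alternatives. Trisim1_009224 (258 bp) had a smaller but tighter difference, at 8.71, 12.9 and 8.60 CPM against 43.7, 45.5 and 43.2 CPM in day 3 and 48.4, 61.1 and 78.7 CPM in day 1 controls. Its log2 difference from the day 3 control was −2.13 ± 0.27 (SE; joint adjusted p = 0.000528, edgeR). The day 3 control flasks agreed to within a few CPM, and no treated flask came near them. Means of Trisim1_009224 with 9,10-dibutoxyanthracene were also low, at 18.2 CPM on day 1 and 15.8 CPM on day 3. That day 1 level was called below the day 3 control (log2 difference −1.28, adjusted p = 0.0147, edgeR). With phenetole the means were 31.7 and 64.6 CPM on days 1 and 3.

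**Figure D1:**
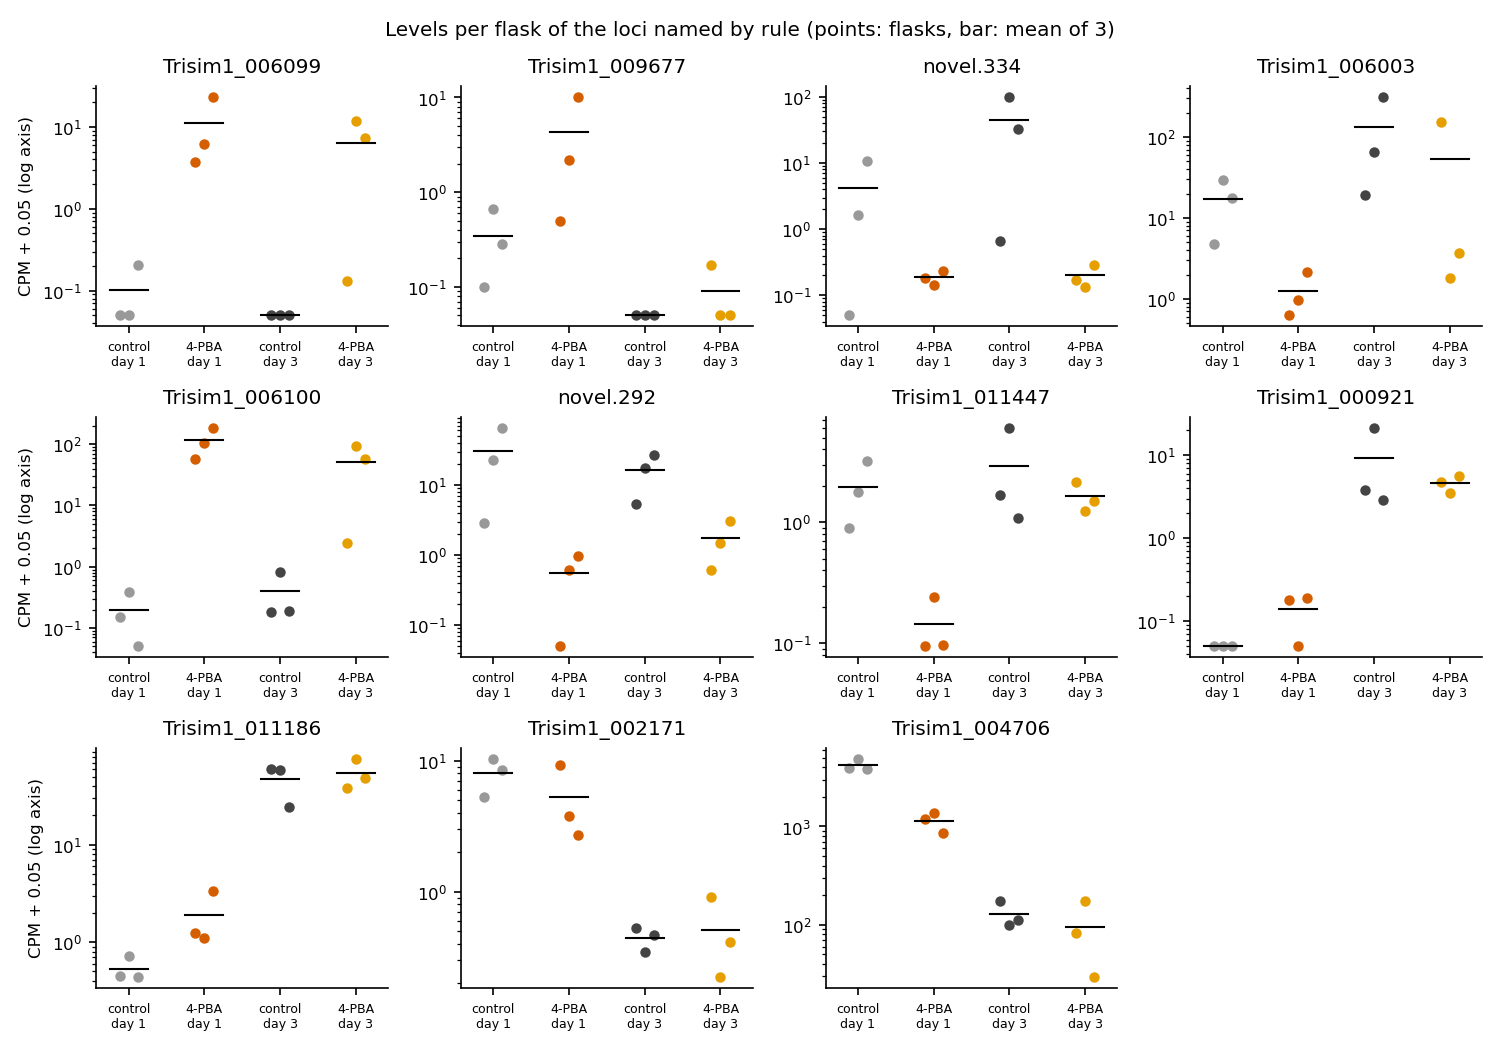
Level of each locus named by rule in every flask of the control and 4-phenoxybenzoic acid (4-PBA) groups, in CPM plus 0.05 on a log axis, with bars for the mean of 3 flasks. Trisim1_006100 lies below 1 CPM in all 6 control flasks, Trisim1_000921 is higher in day 3 than in day 1 flasks, and the day 3 controls of the 1080 bp locus range from 0.606 to 98.8 CPM.

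Other loci had reached their day 3 control level in neither day 1 group. The matching joint test, of the day 3 control against both day 1 groups, called 44 loci (0.406%), 31 higher (0.286%) and 13 lower (0.12%) in the day 3 control, and all 44 differed at least 2-fold from both. Trisim1_000921 (2079 bp) and Trisim1_011186 (2072 bp) were named among the higher ones. Day 3 controls held Trisim1_000921 at 3.81, 21.2 and 2.83 CPM, while treated day 1 flasks held it at 0.133, 0 and 0.139 CPM and day 1 controls held no count. It was 105-fold lower in the treated flasks than in the day 3 control (joint adjusted p = 0.00665, edgeR). That fold rests on 6 counts over the treated flasks. Trisim1_011186 stood at 60.1, 58.9 and 24.6 CPM in day 3 controls, 1.19, 1.05 and 3.30 CPM in treated day 1 flasks and 0.402, 0.67 and 0.384 CPM in day 1 controls (27.6-fold lower in treated flasks; joint adjusted p = 0.0176, edgeR). Treated flasks of day 3 were at 38.0, 76.2 and 48.7 CPM for Trisim1_011186 and at 4.69, 3.47 and 5.53 CPM for Trisim1_000921, within the range of the day 3 controls or near it. Each of these joint calls was lost in 3 of 18 alternatives, among them those without treated flask 1 or flask 2.

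Trisim1_002171 (1876 bp) and Trisim1_004706 (2496 bp) were named among the 13 loci whose level in the day 3 control was below both day 1 groups. Trisim1_004706 was abundant on day 1, with 3940, 4870 and 3889 CPM in controls and 1191, 1371 and 865 CPM in treated flasks, and stood at 174, 99.7 and 113 CPM in day 3 controls. The treated flasks thus lay between the controls, 8.62-fold above day 3 and 3.73-fold below day 1 (joint adjusted p = 0.0464, edgeR). Trisim1_002171 stood at 5.22, 10.3 and 8.38 CPM in day 1 controls, 9.20, 3.77 and 2.65 CPM in treated flasks and 0.477, 0.294 and 0.414 CPM in day 3 controls (joint adjusted p = 0.0464, edgeR). For this locus the day 1 groups overlapped each other and neither overlapped the day 3 control. The joint call was lost in 11 of 18 alternatives for Trisim1_002171 and in 10 for Trisim1_004706, including 8 and 9 of the 9 that left out a single flask. The count of 44 fell to 0 without treated flask 1 or flask 2, where 666 and 667 loci had an unadjusted p under 0.05 (edgeR). It was 2 and 8 without day 3 control flasks 2 and 3, and 19 and 25 without day 1 control flasks 2 and 3. With DESeq2 it was 194, with limma 72, with the compared groups alone 9, and 21 both with the control and 4-phenoxybenzoic acid groups and without the flasks numbered 3.

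Loci picked out earlier in these data for their change with age in the control showed different degrees of match. Trisim1_007370 (759 bp) and Trisim1_009558 (2304 bp), at 3.53 ± 2.08 and 3.06 ± 1.27 CPM in day 1 controls (SD, n = 3), had 2 and 1 counts over the treated day 1 flasks and 0 over the day 3 controls. Trisim1_008178 (1404 bp) stood at 3.23, 6.63 and 3.86 CPM in treated flasks and 6.89, 2.69 and 2.97 CPM in day 3 controls, with overlapping groups and a log2 difference of 0.12 ± 0.76 (SE; adjusted p = 0.951, edgeR). Among loci that increase with age, Trisim1_003562 (429 bp) was at 10.5, 19.7 and 25.4 CPM in treated flasks and 33.3, 39.8 and 53.6 CPM in day 3 controls, a log2 difference of −1.19 ± 0.39 that missed the threshold (adjusted p = 0.0765, edgeR). Trisim1_003296 (632 bp) was at 3.71, 0.858 and 3.21 CPM against 15.4, 11.1 and 7.05 CPM (adjusted p = 0.214, edgeR), and Trisim1_001031 (1413 bp) at 10.9, 9.35 and 22.7 CPM against 67.3, 86.7 and 21.8 CPM (adjusted p = 0.174, edgeR). The groups of Trisim1_003562 and Trisim1_003296 did not overlap, and a missed threshold does not show equal levels. The locus with the highest mean CPM in both compared groups, Trisim1_000288 (908 bp), had a log2 difference of 0.39 ± 0.45 from the day 3 control (SE; adjusted p = 0.659, edgeR). Of loci lower with the compound on both days, Trisim1_010012 (3893 bp) was also below the day 3 control, at 18, 21.3 and 40.0 CPM against 48.0, 172 and 116 CPM (adjusted p = 0.0426, edgeR; lost in 6 of 15 alternatives), and Trisim1_003741 (1107 bp) had an adjusted p of 0.0509 (edgeR).

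Where the day 1 control stood shows which kinds of difference made up the 578 calls. Of the 428 lower loci, the day 1 control mean lay between the compared groups in 244 (57%), the treated mean lay between the controls in 95 (22.2%) and the day 3 control mean lay between the day 1 groups in 89 (20.8%). Of the 150 higher loci, these orders made up 70 (46.7%), 43 (28.7%) and 37 (24.7%). Among all loci tested with a lower treated mean, the same orders made up 25%, 37.8% and 37.2%, and among those with a higher one 22.5%, 34.2% and 43.3%. A call requires the treated and the day 3 control means to be far apart, which by construction favours the remaining group lying between them. These shares therefore describe the called loci and test nothing.

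The called loci were then followed through all 24 libraries, as the median over a list of each locus's log2 CPM relative to its mean. For the 150 higher loci the treated day 1 flasks stood at 0.70 to 0.96 and the day 3 controls at −0.60 to −0.41, as the calls require. Day 1 controls lay between, at 0.17 to 0.37, and so did day 1 cultures with phenetole, at 0.25 to 0.27, and with 9,10-dibutoxyanthracene, at 0.12 to 0.45. Treated flasks of day 3 had moved to −0.38 to −0.11, and 9,10-dibutoxyanthracene flasks of day 3 were lowest, at −0.98 to −0.87. For the 428 lower loci, treated day 1 flasks stood at −1.21 to −0.77 and day 3 controls at 0.37 to 1.07, with control flask 1 at the low end. The next lowest group was 9,10-dibutoxyanthracene at day 1, at −0.58 to −0.35, and treated flasks of day 3 stood at 0.12 to 0.15. No group other than the treated day 1 flasks had a flask beyond them in the direction of either list. The choice of these loci by their treated day 1 levels favours this, so it tests nothing.

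**Figure D2:**
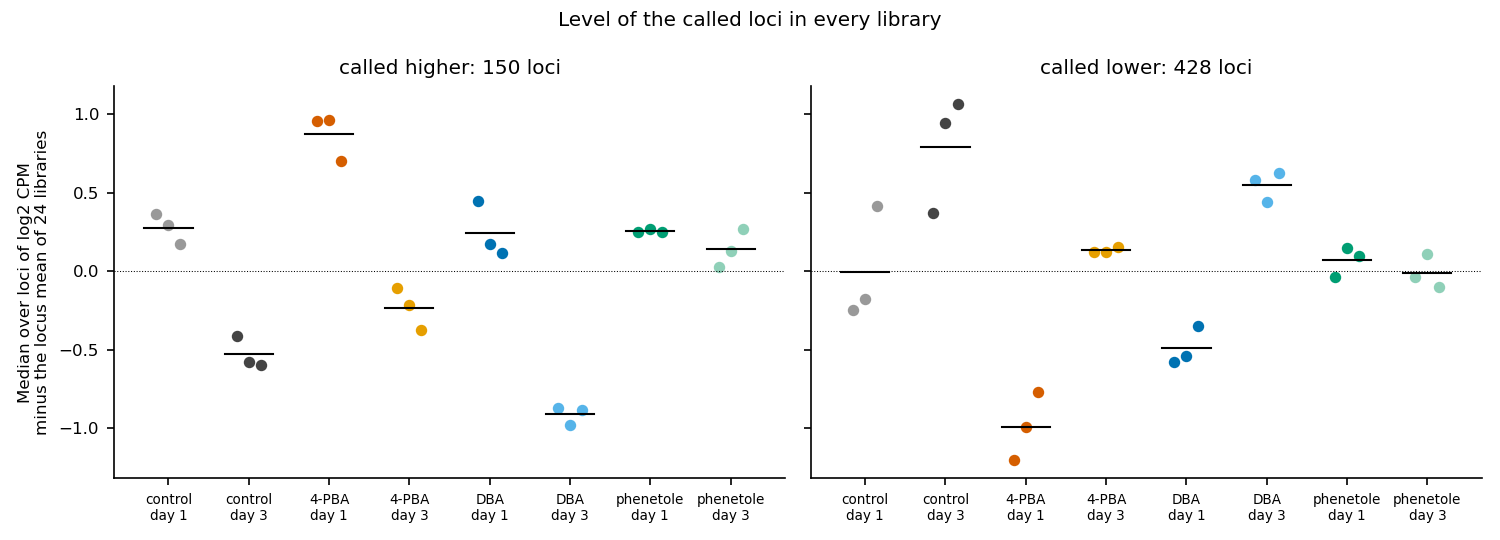
Median over the 150 higher (left) and 428 lower (right) loci of log2 CPM minus the locus mean over 24 libraries, 1 point a flask, bars for group means; 4-PBA is 4-phenoxybenzoic acid and DBA 9,10-dibutoxyanthracene. Treated day 1 flasks are at 0.70 to 0.96 on the left and at −1.21 to −0.77 on the right, and treated day 3 flasks lie between them and the day 3 controls.

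As a share of all counts, the 428 lower loci made up 2.24% ± 0.472 in treated day 1 flasks against 7.24% ± 1.46 in day 3 controls and 5.38% ± 1.59 in day 1 controls (SD, n = 3). The 150 higher loci made up 2.61% ± 0.594, 0.861% ± 0.245 and 1.5% ± 0.345. In treated flasks of day 3 the shares were 4.57% ± 0.771 and 1.15% ± 0.175. For 276 of the 428 lower loci (64.5%) and 125 of the 150 higher loci (83.3%), the treated day 3 mean was nearer to the day 3 control than to the treated day 1 mean, against 51.8% of all loci tested; a call by itself makes a return toward the control mean more likely.

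Called loci also lay side by side in the numbering. Of the 145 higher loci with a number, 25 (17.2%) had a neighbouring number called higher too, while 2.19% of the numbered loci not called higher had such a neighbour. For the 408 lower loci with a number it was 84 (20.6%) against 6.1%. Higher loci formed 5 runs of 2 and 5 runs of 3, and lower loci 37 runs of 2, 2 of 3 and 1 of 4. The sources used here do not say whether consecutive numbers are neighbours on a chromosome, and runs may share reads where loci overlap. The loci of these runs were singled out after their values were seen.

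The runs differed in which group stood apart. From Trisim1_006099 to Trisim1_006101 both controls were at 3.72 CPM or lower. From Trisim1_005588 to Trisim1_005590 the treated day 1 flasks were above both controls by a modest factor. Trisim1_005589 (1098 bp), for example, was at 421, 470 and 252 CPM against 229, 158 and 99.4 CPM in day 3 and 129, 135 and 118 CPM in day 1 controls (adjusted p = 0.0143 against day 3, edgeR; lost in 6 of 15 alternatives). Of this run, the joint test against both controls called Trisim1_005589 alone (adjusted p = 0.0463, edgeR). Trisim1_005588 and Trisim1_005590 had joint adjusted p of 0.0922 and 0.162 (edgeR). The runs that start at Trisim1_002171 and Trisim1_004705 had the order day 1 control, treated, day 3 control in their group means. Trisim1_004705 (1550 bp) stood at 186, 186 and 162 CPM, then 55.3, 65.6 and 44.3 CPM, then 12.6, 8.22 and 12.4 CPM in these groups (log2 difference from day 3 of 2.31 ± 0.47, SE; adjusted p = 0.0088, edgeR). It kept its call under all 15 alternatives.

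Among lower loci, the run of 4 from Trisim1_003386 to Trisim1_003389 had like levels in the controls of both days and lower ones with the compound. Levels were also low with dibutoxyanthracene on day 1, where the means were 8.43, 8.23, 6.61 and 9.56 CPM from Trisim1_003386 to Trisim1_003389, against 8.44, 8.15, 5.75 and 8.85 CPM with 4-phenoxybenzoic acid. In day 3 cultures the 4 means ranged from 6.91 to 10.4 CPM with dibutoxyanthracene and from 5.63 to 9.24 CPM with phenetole. The joint test against both controls called Trisim1_003387 and Trisim1_003388 (adjusted p = 0.0483 and 0.0191, edgeR). It did not call Trisim1_003386 and Trisim1_003389 (adjusted p = 0.119 and 0.121, edgeR). Trisim1_003388 (1269 bp) was at 4.64, 5.72 and 6.88 CPM in treated flasks, 13.5, 14.3 and 23.5 CPM in day 3 controls and 17.5, 12.3 and 27.3 CPM in day 1 controls (log2 difference from day 3 of −1.57 ± 0.30, SE; adjusted p = 0.00572, edgeR), a call lost without treated flask 1. Treated flasks of day 3, at 6.4, 6.94 and 8.32 CPM, were also below every control flask for this locus, although the day 3 groups did not pass the test (adjusted p = 0.0939, edgeR). In the run from Trisim1_011937 to Trisim1_011939 the day 3 controls disagreed at the first and second locus, and Trisim1_011938 (2085 bp) was at 0.13, 27.6 and 28.9 CPM there and at 0 in all treated flasks. The pooled ratio was at least 369-fold, larger than that of the 2 lower loci named by rule, and too few counts in control flask 1 kept it outside that rule (adjusted p = 0.0169, edgeR; lost without any one treated flask, or without the flasks numbered 3).

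**Figure D3:**
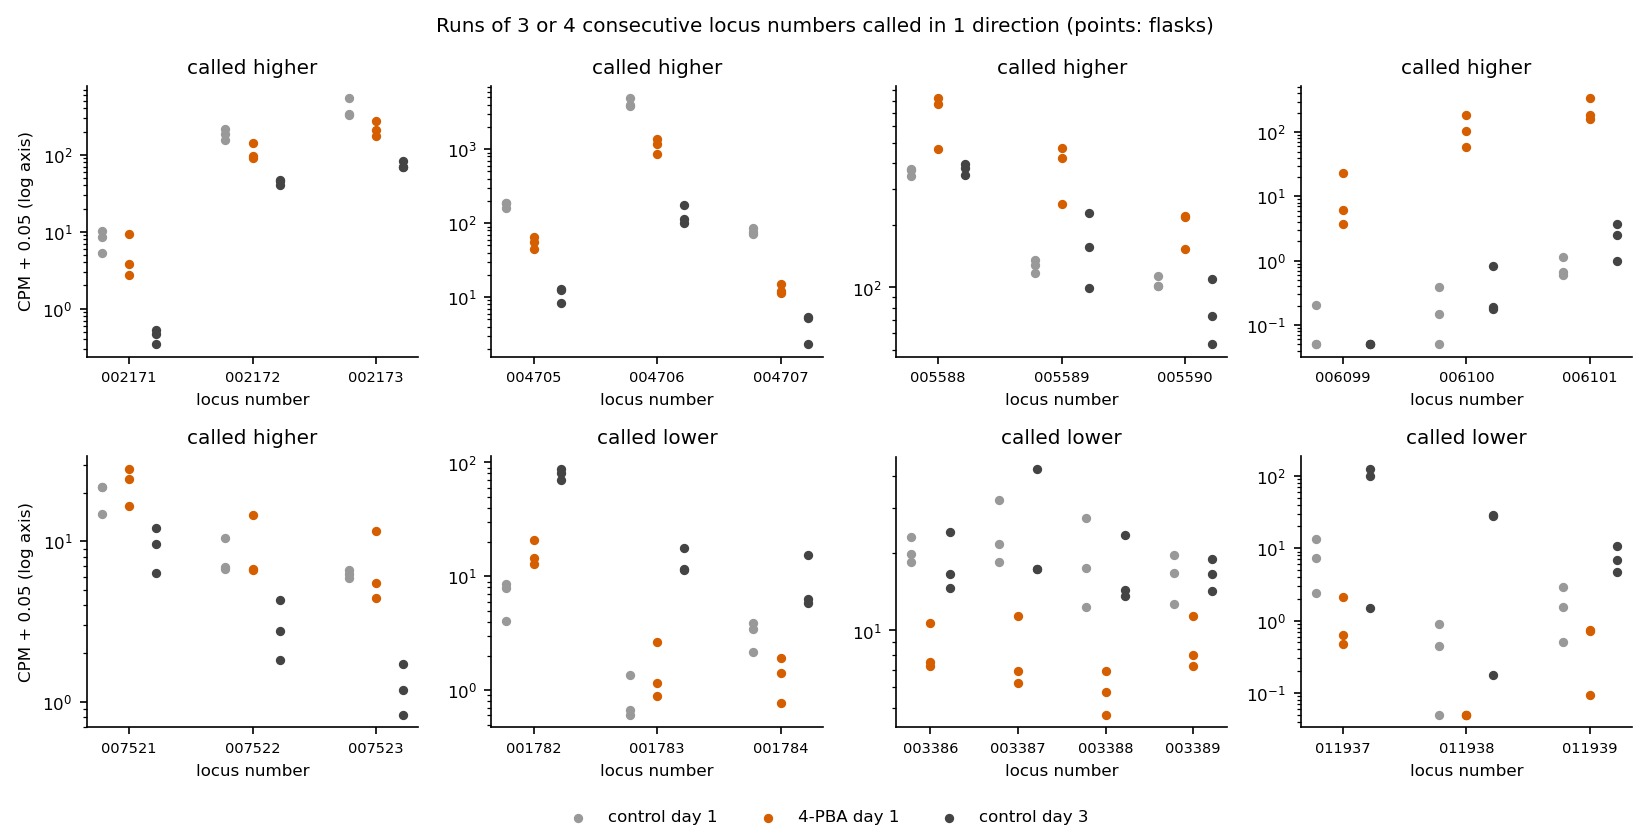
Level in CPM plus 0.05 (log axis) of each locus in the 8 runs of 3 or 4 consecutive numbers called in 1 direction, 1 point a flask, for day 1 controls, treated day 1 flasks (4-PBA) and day 3 controls. In the run from 003386 to 003389 the controls of both days lie together above the treated flasks, while from 004705 to 004707 the treated flasks lie between the controls.

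Class, length and level of the called loci were described without a test. Loci outside the numbered models were 5 of the 150 higher (3.33%) and 20 of the 428 lower ones (4.67%), against 5.95% of all loci tested. Higher loci had a median length of 1815 bp, lower ones 1374 bp and all tested loci 1578 bp. Across 6 bins of mean log2 CPM, lower calls made up 2.68% (6 to 8) to 5.49% (over 8) of the loci in a bin. Higher calls made up 0.609% (under 0) to 1.73% (4 to 6).

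Dibutoxyanthracene mycelium of day 1 (5 mg/L), set against the same day 3 controls, had 242 loci called (2.23%), 69 higher (0.636%) and 173 lower (1.6%). The doses and the volumes of dichloromethane stock (2.5% against 5% of the culture) differ, and both comparisons use the same controls. The counts therefore stand side by side only. Over the 428 lower loci the median log2 difference from the day 3 control was −2.05 with 4-phenoxybenzoic acid, which chose them, and −1.38 with dibutoxyanthracene. Over the 150 higher loci it was 1.49 and 0.78. Of the loci above, Trisim1_006100 stood at 0.925 ± 0.267 CPM and Trisim1_006101 at 1.53 ± 0.548 CPM with dibutoxyanthracene on day 1 (SD, n = 3), against 116 ± 63.7 and 228 ± 94.8 CPM with 4-phenoxybenzoic acid. Other loci had similar means with either compound on day 1, and the shared solvent cannot be told apart from the compounds here. The 1080 bp locus stood at 0.152 ± 0.109 CPM with dibutoxyanthracene and 0.138 ± 0.0455 CPM with 4-phenoxybenzoic acid, and Trisim1_006003 at 1.21 ± 0.477 and 1.19 ± 0.798 CPM. The 1071 bp locus stood at 0.512 ± 0.136 and 0.501 ± 0.469 CPM, and Trisim1_005589 at 340 ± 89.4 and 381 ± 114 CPM. These 4 loci, chosen for their similar means, were also called between dibutoxyanthracene on day 1 and the day 3 control. Their adjusted p values were 0.0252, 0.0169, 0.017 and 0.0459 in this order (edgeR). Among the other loci named by rule, so were Trisim1_011447 and Trisim1_000921 (adjusted p = 0.0463 and 0.00847, edgeR). Trisim1_006099, Trisim1_009677, Trisim1_006100, Trisim1_011186, Trisim1_002171 and Trisim1_004706 were not. Of the 3 loci kept in all joint refits, Trisim1_009224 was called (adjusted p = 0.0147, edgeR), and Trisim1_006101 and Trisim1_002817 were not.

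**Figure D4:**
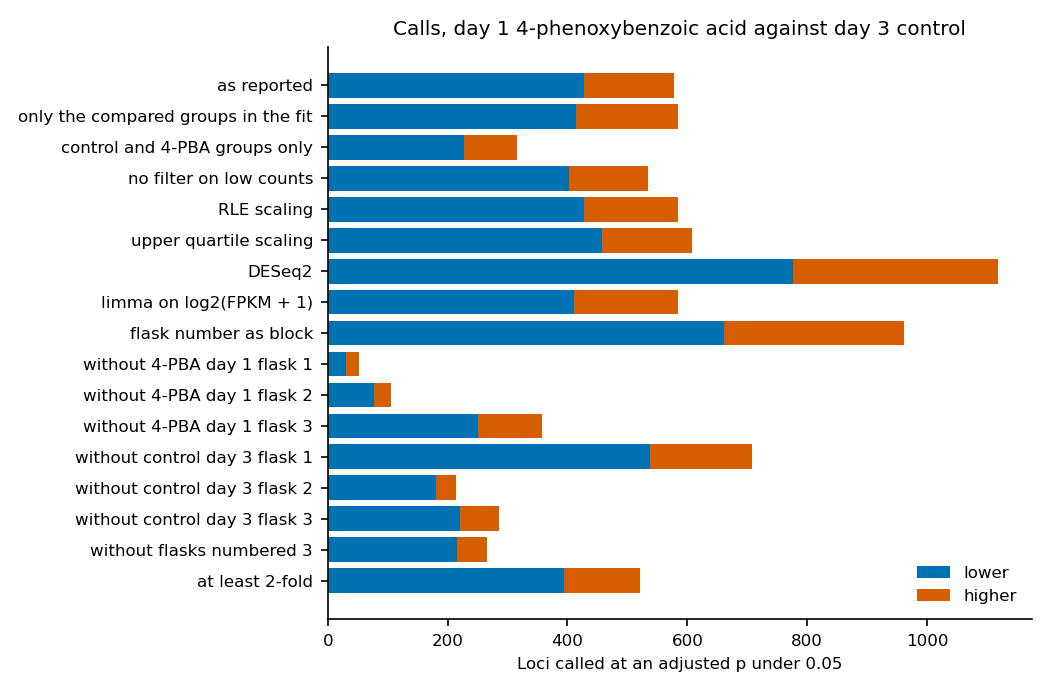
Number of loci called lower and higher in treated day 1 mycelium than in the day 3 control, as reported and under each alternative (4-PBA is 4-phenoxybenzoic acid). The total is 578 as reported, 1119 with DESeq2 and 53 without treated flask 1, and lower calls outnumber higher ones in every bar.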

How the data were processed

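The deposited table of raw counts per locus was made by the authors with featureCounts 1.5.0-p3, per the submitters' processing notes. The sources used here name no aligner, genome build or annotation. The authors also deposited FPKM values, which equal counts divided by a library factor and a length, and each of the 12728 lengths this gives was a whole number within 0.01. In R 4.3.3, loci were kept with edgeR 4.0.16 (filterByExpr, minimum count 10, 8 groups), TMM scaling was applied, and a quasi-likelihood model was fitted to all 24 libraries with a coefficient per group. Contrasts used the two-sided F test, and p-values were adjusted over 10842 loci by the Benjamini-Hochberg method. Joint tests took the larger p of a pair of contrasts of 1 sign (1 otherwise), adjusted likewise. The SE is the log2 difference divided by the root of F. Folds are ratios of pooled scaled counts, with a floor of 3 counts over a group. They are given without an interval and do not show the spread between flasks. In each direction the 2 loci of largest difference were named, among called loci whose groups were fully separated, with a minimum of 10 counts in each library on the higher side. Members, rules and alternatives were chosen with earlier results of these data known. Alternatives used DESeq2 1.42.0, limma 3.58.1 on log2(FPKM + 1), other scalings, filters and samples. Scripts were tested on simulated data. The labels number 3 flasks in each group, so the p-values reflect spread between flasks as labelled. Repeated use of the same flasks on both days is not excluded by the labels. The reported fit treated all 24 libraries as separate.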

Additional observations from a re-analysis of the deposited data

How the results depend on the processing

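The comparison of treated day 1 with control day 3 mycelium gave 578 calls, against 316 with control and 4-phenoxybenzoic acid groups only, 1119 with DESeq2 (343 higher, 776 lower), 265 without the flasks numbered 3 (an alternative chosen after seeing the data) and 53 to 707 when single libraries were left out. The joint test against both controls gave 60, against 13 with the compared groups alone, 16 with control and 4-phenoxybenzoic acid groups only, 229 with DESeq2, 5 without the flasks numbered 3 and 7 to 82 without single libraries. The test of the day 3 control against both day 1 groups gave 44, against 9, 21, 194, 21 and 0 to 32 in the same order, and 72 with limma on log2(FPKM + 1). The causes were not tested. Other scalings, no filter and a 2-fold minimum kept every count within 1.5 times. No named locus changed direction where it was called in the reported fit or in the alternative. Changes of sign at uncalled loci were not counted.

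The flask number gave an uneven pairing: deviations of same-numbered flasks 1, 2 and 3 correlated at 0.27, 0.02 and 0.23 between the compared groups. Between the controls of days 1 and 3 the values were 0.28, 0.06 and 0.40. Between treated and control mycelium of day 1 they were 0.30, 0.05 and 0.29. In each of these pairs of groups, flasks 1 and 3 correlated best with their own number. With flask number as a replicate block there were 962 calls (301 higher, 661 lower). The block gave 162 calls for the joint test against both controls and 61 for the late control. Of 60 joint calls 3, and of 44 none, were made under all 18 refits.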
